A study of Arabidopsis thaliana with 10 samples.

Results

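Transcripts of the core cell cycle machinery were followed in Arabidopsis seedlings with and without a block of chloroplast development. The set held 37 of the 33602 genes in the count tables: 7 A-type, 9 B-type, 10 D-type and 2 P-type cyclins, 5 cyclin-dependent kinases (CDKs) of the A and B types, and 4 CDK inhibitors. It was listed by gene identifier, with earlier results of these data known. RNA came from whole seedlings of the Col6-3 background, pooled from more than 100 plants per library and grown for 5 days in continuous light of 100 µmol per square metre and second at 22 °C. On 5 µM norflurazon the groups were gun1-9, a mutant of the plastid signalling protein GUN1, then MORF2OX and MORF2OX(w), which overexpress the plastid RNA editing factor MORF2 and are labelled by the strength of their phenotype, and wild type (WT). The last group was WT without the inhibitor. Norflurazon blocks carotenoid synthesis, so that seedlings bleach in light. The labels name neither the lesion of gun1-9, the promoter of the MORF2 transgene nor whether a line is 1 insertion event. Each group had 2 libraries, and no untreated library of a mutant or overexpression line was used here, so that an effect of a line without norflurazon cannot be told apart from its effect on norflurazon.

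Cyclins bind CDKs and give them activity and direction. In plants, D-type cyclins act with CDKA at the entry into the cycle in G1, A3-type cyclins appear around the start of DNA replication, A2-type cyclins span S phase to mitosis, and A1-type and B-type cyclins with the plant-specific CDKB kinases drive G2 and mitosis. Transcription of many G2 and mitosis genes runs through MYB3R factors, which bind a short element called the mitosis-specific activator. Inhibitors of the KRP family bind CDKs with their cyclins, and SIAMESE (SIM) and its relatives do the same where cells leave division for endoreduplication, a cycle of DNA replication without mitosis. In a young seedling, dividing cells sit mainly in the shoot and root meristems, the leaf primordia and the stomatal lineage. P-type cyclins resemble the yeast cyclin Pho80 and have been linked in Arabidopsis to nutrient and sugar signals.

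Total counts ran from 19018594 to 25220815 per library. Values are CPM, read counts divided by library totals that were scaled with TMM factors of 0.722 to 1.27, and differences are log2 fold changes from edgeR's quasi-likelihood test over 20628 genes, with a standard error (SE) and a Benjamini-Hochberg adjusted p, called below 0.05. The labels do not say that the replicates were grown apart, so p-values measure a spread that may be technical. MORF2 reached 7969 and 7248 CPM in MORF2OX and 4430 and 5012 CPM in MORF2OX(w), against 99.7 and 105 CPM in WT on norflurazon. GUN1 stood at 154 and 147 CPM in gun1-9, against 191 and 284 CPM in WT on norflurazon. Across genes, Spearman's correlation between replicates was 0.984 in WT on norflurazon and 0.994 to 0.997 in the other groups. All 3 comparisons of a line with WT on norflurazon share those libraries.

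In WT on norflurazon the whole mitotic set was lower. All 14 members of G2 and mitosis fell against untreated WT, 12 of them also with library totals alone as the scaling. Their log2 fold changes ran from -2.80 to -0.73 with a median of -2.19, and their summed level was 37.5 and 28.4 CPM in WT on norflurazon, against 120.2 and 125 CPM in untreated WT. Of the 36 members tested, 25 fell and 4 rose. Among all genes tested, 34.5% fell, 30.5% rose and 65% changed in either direction, and their median was -0.03. In a pool of whole seedlings, fewer dividing cells and less of these RNAs per cell cannot be told apart.

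**Figure D1:**
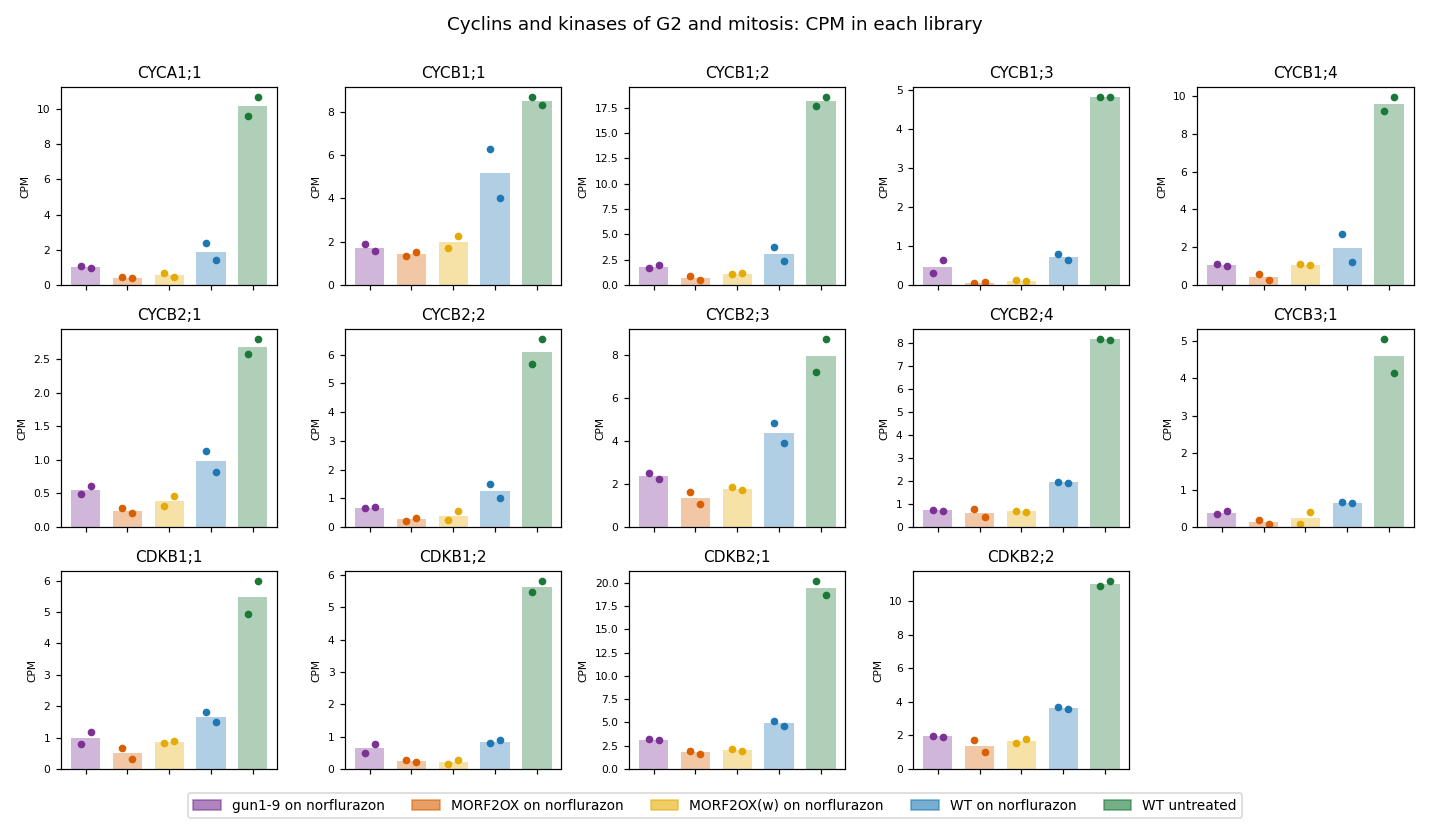
CPM (vertical axis, from 0, a separate scale for each gene) of the 14 cyclins and kinases of G2 and mitosis in the 10 libraries. Points are libraries and bars the mean of the 2 in a group, from gun1-9, MORF2OX and MORF2OX(w) on norflurazon through WT on norflurazon to untreated WT at the right. In each panel both untreated WT libraries stand above all 8 norflurazon libraries.

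B1-type cyclins are the classic markers of cells in G2 and mitosis. The most abundant of them per kilobase of exon in untreated seedlings, CYCB1;2 (AT5G06150), had 3.77 and 2.35 CPM in WT on norflurazon, against 17.7 and 18.6 CPM in untreated WT. Its log2 fold change was -2.58 (SE 0.23, edgeR adjusted p = 1.1e-06). CYCB1;3 (AT3G11520) had 0.795 and 0.641 CPM in WT on norflurazon, against 4.81 and 4.82 CPM in untreated WT, a change of -2.74 (SE 0.30, edgeR adjusted p = 7.37e-06). In both genes the groups stood far apart.

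CYCB1;1 (AT4G37490), the cyclin whose promoter is widely used to report dividing cells and which also responds to DNA damage, was the least reduced of the 14. It had 6.28 and 4.03 CPM in WT on norflurazon, against 8.70 and 8.30 CPM in untreated WT, and a log2 fold change of -0.73 (SE 0.22, edgeR adjusted p = 0.0125). That call was lost without either untreated WT library (adjusted p = 0.091 and 0.062) and without WT norflurazon replicate 2 (-0.43, adjusted p = 0.0772), all by edgeR. The groups did not overlap, but the gap between them was smaller than that between the 2 norflurazon replicates. In the list of 7 DNA damage response genes the same comparison had 1 gene higher and 4 lower, beside 30.5% and 34.5% of all genes tested.

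Among the B2-type and B3-type cyclins the fall was widest in CYCB3;1 (AT1G16330), known in Arabidopsis for a role in meiosis. It had 0.670 and 0.641 CPM in WT on norflurazon, against 5.07 and 4.15 CPM in untreated WT (log2 fold change -2.80, SE 0.38, edgeR adjusted p = 3.64e-05). The smallest fall of the B2 cyclins was that of CYCB2;3 (AT1G20610), with 4.81 and 3.92 CPM in WT on norflurazon, against 7.18 and 8.75 CPM in untreated WT. At -0.87 (edgeR adjusted p = 0.00301), its call was lost without untreated WT replicate 2 (-0.63, edgeR adjusted p = 0.0581). Without that library 12 of the 14 genes of G2 and mitosis passed.

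All 4 B-type kinases, which occur only in plants and are made in dividing cells around G2 and mitosis, fell with their cyclins. CDKB2;1 (AT1G76540), the most abundant per kilobase of exon in untreated WT, had 5.19 and 4.60 CPM in WT on norflurazon, against 20.22 and 18.7 CPM in untreated WT (-1.99, SE 0.15, edgeR adjusted p = 3.43e-07). CDKB1;2 (AT2G38620) had 0.795 and 0.891 CPM in WT on norflurazon, against 5.47 and 5.83 CPM in untreated WT (-2.73, SE 0.27, edgeR adjusted p = 3.02e-06). Both genes, like the other B-type kinases, overlap a neighbour on the opposite strand. The strand setting of the counting is not given in the sources used here, so their values are uncertain to that degree. Reads shared between close paralogues could also affect them.

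The stretch just upstream of these genes was read for the letters of the MYB3R element. The search took the core AACGG on either strand in the 250 bases before the annotated gene start (TAIR10.1 assembly). At least 1 core stood before 8 of the 14 G2 and mitosis genes (57.1%), against 20.6% of 27443 nuclear protein-coding genes and 5 of the 23 other members (21.7%). At least 3 cores stood before 6 of the 14 (42.9%), against 0.736% of all genes. These were 3 of the 4 B1 cyclins and 3 of the 4 B2 cyclins. Their windows are printed because they carry the repeated core, in capitals, 5′ to 3′ along the gene's own strand, so that a core on the other strand reads CCGTT. CYCB1;4 (AT2G26760) is shown beside them as a B1 cyclin with no core in the window, and KRP1 as an inhibitor with 6.
CYCB1;1: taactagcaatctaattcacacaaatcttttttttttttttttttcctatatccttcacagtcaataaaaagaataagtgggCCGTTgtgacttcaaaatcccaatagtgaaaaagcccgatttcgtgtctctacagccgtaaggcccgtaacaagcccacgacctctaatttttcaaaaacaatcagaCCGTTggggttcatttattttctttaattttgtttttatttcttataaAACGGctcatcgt
CYCB1;2: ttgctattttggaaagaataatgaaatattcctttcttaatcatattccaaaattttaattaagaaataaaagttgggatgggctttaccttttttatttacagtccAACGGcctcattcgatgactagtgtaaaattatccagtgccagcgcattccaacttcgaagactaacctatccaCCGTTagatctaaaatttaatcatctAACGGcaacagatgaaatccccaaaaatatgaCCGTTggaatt
CYCB1;3: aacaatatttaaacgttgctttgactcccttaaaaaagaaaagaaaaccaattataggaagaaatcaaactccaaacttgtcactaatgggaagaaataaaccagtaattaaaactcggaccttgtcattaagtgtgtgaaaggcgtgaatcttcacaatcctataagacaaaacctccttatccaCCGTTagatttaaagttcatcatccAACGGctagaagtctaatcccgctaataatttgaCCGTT
CYCB2;1: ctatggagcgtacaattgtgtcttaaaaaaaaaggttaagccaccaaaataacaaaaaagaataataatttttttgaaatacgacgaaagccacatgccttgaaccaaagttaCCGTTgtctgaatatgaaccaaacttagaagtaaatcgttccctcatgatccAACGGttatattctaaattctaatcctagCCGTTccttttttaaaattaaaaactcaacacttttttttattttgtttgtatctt
CYCB2;2: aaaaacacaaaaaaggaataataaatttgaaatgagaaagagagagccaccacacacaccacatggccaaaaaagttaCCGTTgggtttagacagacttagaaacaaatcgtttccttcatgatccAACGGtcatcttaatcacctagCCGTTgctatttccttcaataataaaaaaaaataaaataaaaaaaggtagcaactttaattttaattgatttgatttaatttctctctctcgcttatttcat
CYCB2;3: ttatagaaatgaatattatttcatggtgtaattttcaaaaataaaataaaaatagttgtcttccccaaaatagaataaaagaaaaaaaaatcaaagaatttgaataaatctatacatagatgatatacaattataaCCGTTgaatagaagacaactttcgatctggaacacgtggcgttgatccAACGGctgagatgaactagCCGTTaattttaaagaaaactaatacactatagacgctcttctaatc
CYCB1;4: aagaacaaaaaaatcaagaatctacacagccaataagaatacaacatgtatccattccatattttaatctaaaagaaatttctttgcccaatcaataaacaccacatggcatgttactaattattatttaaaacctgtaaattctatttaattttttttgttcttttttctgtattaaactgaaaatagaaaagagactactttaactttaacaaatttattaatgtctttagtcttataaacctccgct
KRP1: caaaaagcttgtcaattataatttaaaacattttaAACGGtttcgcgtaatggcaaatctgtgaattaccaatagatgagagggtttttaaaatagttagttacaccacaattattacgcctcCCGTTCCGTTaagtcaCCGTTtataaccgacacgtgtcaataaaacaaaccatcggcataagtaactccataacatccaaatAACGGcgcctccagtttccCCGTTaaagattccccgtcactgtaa

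In the order printed, the windows lie at chr4:17624309-17624558 (minus strand), chr5:1861704-1861953 (minus), chr3:3627274-3627523 (minus), chr2:7663805-7664054 (plus), chr4:16901346-16901595 (plus), chr1:7137829-7138078 (minus), chr2:11400868-11401117 (plus) and chr2:9978091-9978340 (minus). They end at the base before the first annotated base of the gene. Genes without a core in the window fell as well. CYCB1;4, which has none, had 2.68 and 1.21 CPM in WT on norflurazon, against 9.22 and 9.98 CPM in untreated WT (-2.32, SE 0.31, edgeR adjusted p = 3.33e-05). CYCB1;1, the least reduced of the 14, has 3. A site of the E2F factors of S phase entry, searched as TTTCCCGC, TTTGGCGC, TTTGCCGC or TTTCGCGC on either strand, stood before none of the 14, before 1 of the 37 members (a D3 cyclin) and before 1.41% of all genes. These matches describe letters and not bound sites.

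**Figure D2:**
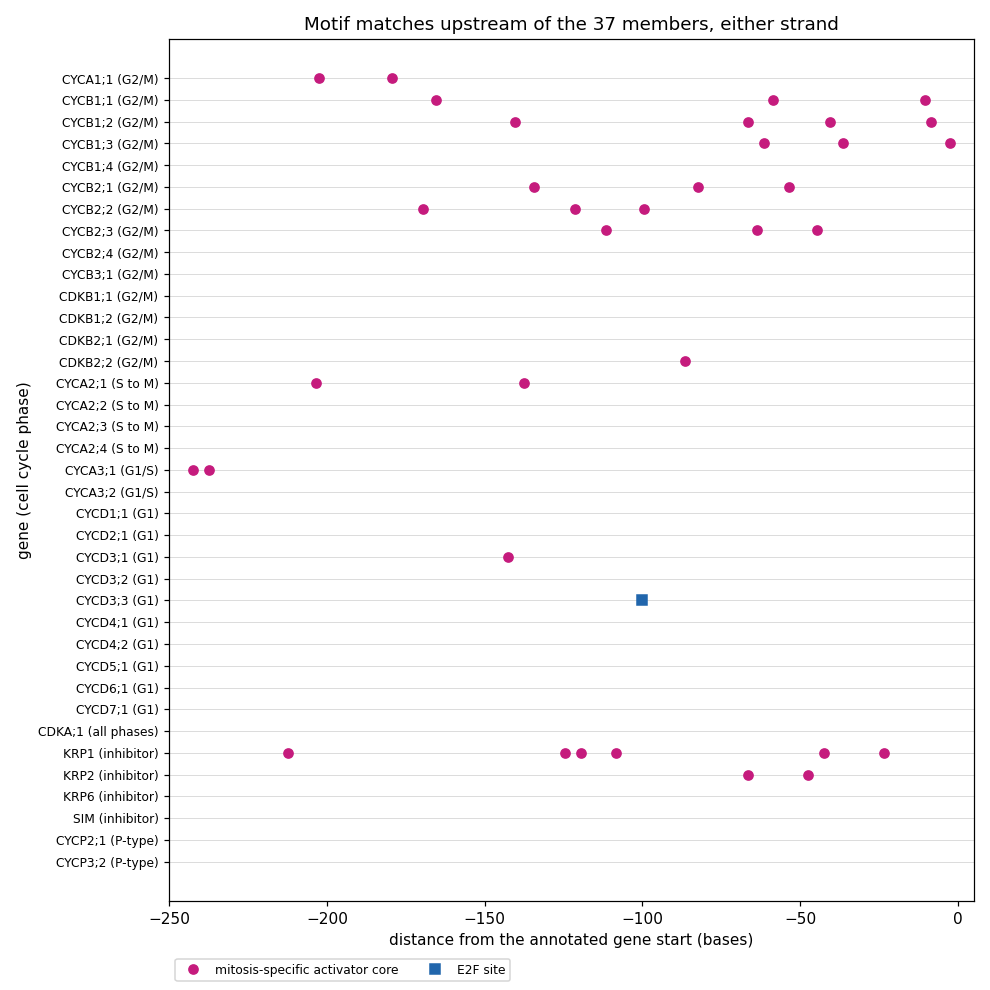
Places of the mitosis-specific activator core (circles) and of E2F sites (squares) upstream of the 37 members, with distance from the annotated gene start in bases on the horizontal axis and genes in order of cell cycle phase down the page. Cores gather upstream of B1-type and B2-type cyclins, where 6 genes hold at least 3, and KRP1 holds 6.

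Cyclins of the earlier phases moved less evenly under norflurazon. CYCA3;1 (AT5G43080), a cyclin of the G1 to S transition, had 0.712 and 0.677 CPM in WT on norflurazon, against 3.95 and 4.71 CPM in untreated WT (-2.64, SE 0.29, edgeR adjusted p = 6.52e-06). Its relative CYCA3;2 (AT1G47210) had 8.58 and 10.7 CPM in WT on norflurazon, against 15.6 and 17.8 CPM in untreated WT (-0.79, SE 0.16, edgeR adjusted p = 0.000916). Of the 4 A2-type cyclins, known in Arabidopsis for holding back endoreduplication, 2 fell, where 34.5% of all genes tested fell. The 2 were CYCA2;3 (AT1G15570, -1.02), which overlaps a gene on the opposite strand, and CYCA2;4 (AT1G80370, -0.71). The call of CYCA2;4 was lost without untreated WT replicate 2 (-0.52).

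The D-type cyclins, which carry hormone and sugar signals into the cycle, split sharply. CYCD1;1 (AT1G70210) had 2.64 and 5.56 CPM in WT on norflurazon, against 29.8 and 31.7 CPM in untreated WT, the widest fall of any member (-2.89, SE 0.26, edgeR adjusted p = 1.41e-06). CYCD6;1 (AT4G03270), known from asymmetric divisions in the root, had 1.09 and 1.46 CPM in WT on norflurazon, against 5.60 and 5.55 CPM in untreated WT (-2.11, SE 0.25, edgeR adjusted p = 1.14e-05). Both overlap a gene on the opposite strand. CYCD3;1 (AT4G34160), a cytokinin-responsive cyclin, fell by 1.11 on the log2 scale (SE 0.11) to 19.1 and 18.3 CPM in WT on norflurazon, against 40.4 and 40.5 CPM in untreated WT.

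The other D3 cyclins did not follow it. CYCD3;2 (AT5G67260), the most abundant D-type cyclin per kilobase of exon in every group, had 68.1 and 51.5 CPM in WT on norflurazon, against 57.2 and 63.1 CPM in untreated WT. The groups overlapped (-0.01, SE 0.14, edgeR adjusted p = 0.952), and the gene overlaps another on the opposite strand. CYCD3;3 (AT3G50070) had 24.7 and 19.4 CPM in WT on norflurazon, against 21.0 and 18.0 CPM in untreated WT (0.18, SE 0.14, edgeR adjusted p = 0.287). CYCD2;1 (AT2G22490), a cyclin that responds to sucrose, stood at 25.03 and 23.7 CPM in WT on norflurazon, against 23.9 and 21.3 CPM in untreated WT (0.11, edgeR adjusted p = 0.449). CYCD4;1 (AT5G65420), a cyclin of the first root divisions after germination, had 2.47 and 2.03 CPM in WT on norflurazon, against 2.83 and 3.81 CPM in untreated WT (-0.57, SE 0.24, edgeR adjusted p = 0.057). In all, 4 of the 9 tested D-type cyclins fell, where 34.5% of all genes tested fell. The one not tested, CYCD7;1 (AT5G02110), a cyclin of the stomatal guard mother cell, had 8, 7 and 10 counts in gun1-9, MORF2OX and MORF2OX(w), 6 in WT on norflurazon and 6 in untreated WT, and was left out of the tests.

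**Figure D3:**
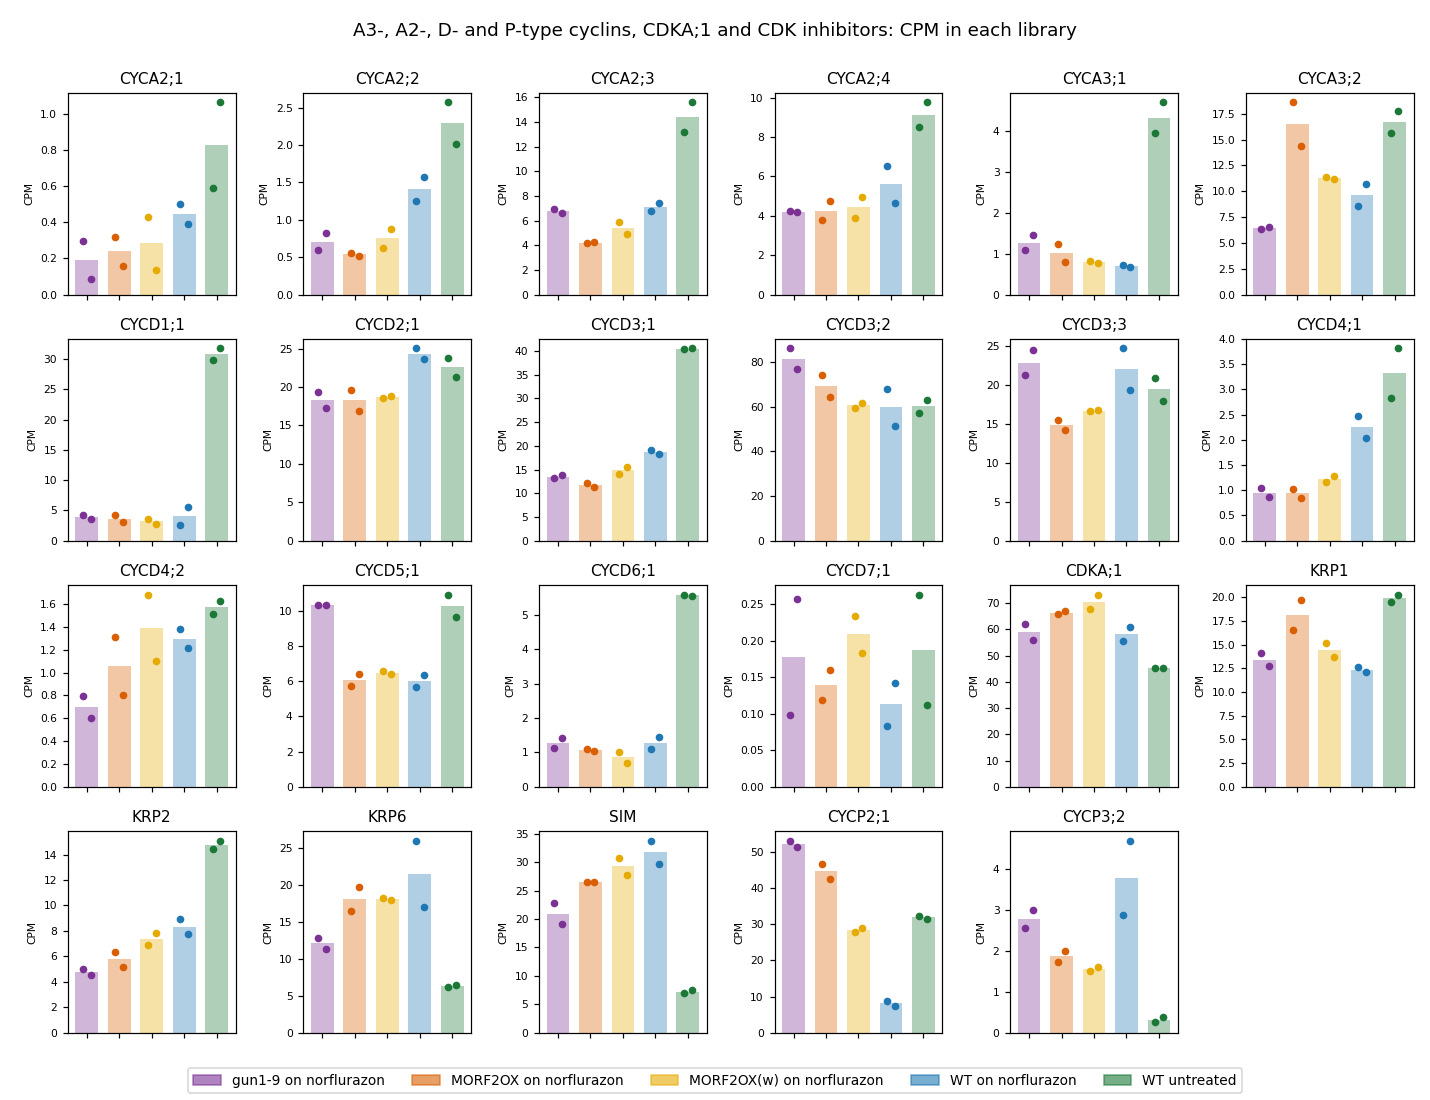
CPM (vertical axis, from 0, a separate scale for each gene) of the 23 members outside G2 and mitosis in the 10 libraries. Points are libraries and bars the mean of the 2 in a group, with gun1-9 at the left and untreated WT at the right. The D-type cyclins differ in pattern from panel to panel, SIM and KRP6 are low in untreated WT, and a P-type cyclin is low in WT on norflurazon, at 8.92 and 7.52 CPM.

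The A-type kinase moved the other way. CDKA;1 (AT3G48750), the kinase that serves every phase, had 55.7 and 60.9 CPM in WT on norflurazon, against 45.2 and 45.4 CPM in untreated WT (0.36, SE 0.11, edgeR adjusted p = 0.0105). The rise was small but larger than the spread, and it passed in all 10 fits that left out a library.

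Inhibitors split by gene. SIM (AT5G04470), the inhibitor of mitotic entry known from leaf hairs, had 33.7 and 29.7 CPM in WT on norflurazon, against 6.98 and 7.46 CPM in untreated WT (2.13, SE 0.14, edgeR adjusted p = 7.63e-08). KRP6 (AT3G19150), known for a role in pollen germ cells, had 26.0 and 17.0 CPM in WT on norflurazon, against 6.19 and 6.50 CPM in untreated WT (1.76, SE 0.20, edgeR adjusted p = 8.28e-06). Both rose with groups well apart, although SIM overlaps a gene on the opposite strand. KRP1 (AT2G23430), an inhibitor of CDKA with D-type cyclins, had 12.6 and 12.1 CPM in WT on norflurazon, against 19.5 and 20.3 CPM in untreated WT (-0.69, SE 0.13, edgeR adjusted p = 0.000571). KRP2 (AT3G50630), which acts on CDKA in dividing cells, had 8.92 and 7.77 CPM in WT on norflurazon, against 14.4 and 15.1 CPM in untreated WT (-0.82, SE 0.15, edgeR adjusted p = 0.000463).

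The P-type cyclins also went in opposite directions. CYCP3;2 (AT3G60550) had 2.89 and 4.70 CPM in WT on norflurazon, against 0.264 and 0.392 CPM in untreated WT, the widest rise of any member (3.50, SE 0.38, edgeR adjusted p = 5.4e-06). The untreated level rests on 4 and 7 counts, so the size of the rise is uncertain. CYCP2;1 (AT3G21870), which in Arabidopsis has been tied to sugar-dependent cell cycle reactivation in the root meristem, had 8.92 and 7.52 CPM in WT on norflurazon, against 32.3 and 31.4 CPM in untreated WT (-1.96, SE 0.12, edgeR adjusted p = 5.93e-08).

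The scaling of the libraries bears on the size of these changes. With library totals alone, chosen after the data were seen, the median of all genes moved to 0.70 for norflurazon in WT, against -0.03 with TMM factors, and 12 of the 14 mitotic members still fell. CYCB1;1 (0.01), CYCA2;4 (0.02) and KRP1 (0.05) then had no fall, CYCD3;2 rose (0.72, edgeR adjusted p = 0.000834), and CYCA2;3, CYCA3;2, CYCB2;3, CYCD5;1 and KRP2 kept a lower value that did not pass (-0.29 to -0.04). All of these but CYCD3;2 lay below the shifted median of all genes. Against WT on norflurazon the totals moved that median to -0.45 in gun1-9, -0.32 in MORF2OX and -0.19 in MORF2OX(w).

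Genes of the same processes outside the set were read next. Their counts stand beside 34.5% of all genes tested that fell and 30.5% that rose. All 19 genes of mitosis and cytokinesis fell in WT on norflurazon (median -2.38), among them the kinesins ATK5 (2.01 and 2.21 CPM, against 18.4 and 16.9 CPM in untreated WT) and POK2, which guides the division plane. Of 23 genes of S phase and replication 20 fell (median -1.27), among them TSO2, a subunit of ribonucleotide reductase (18.8 and 18.4 CPM, against 66.2 and 63.7 CPM in untreated WT). Of 15 MYB3R factors and CDK regulators 9 fell and 1 rose. MYB3R4, an activator of mitotic genes, was at 1.80 and 2.07 CPM in WT on norflurazon, against 13.2 and 13.7 CPM in untreated WT (-2.79, SE 0.23, edgeR adjusted p = 5.8e-07). Of 9 genes of the E2F and retinoblastoma-related pathway 5 fell, with a median of -0.44. Of 12 other KRP and SMR inhibitors 3 rose and 2 fell. The CDK inhibitor SMR7 was among those that rose (1.64, SE 0.33, edgeR adjusted p = 0.000925). Of 7 tested other cyclins 1 rose and 3 fell.

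Markers of tissues that hold dividing cells were read as well, beside 34.5% of all genes tested that fell and 30.5% that rose. Of the 7 stomatal lineage markers 5 fell, their summed level being 36.5 and 37.6 CPM in WT on norflurazon, against 76.0 and 67.1 CPM in untreated WT. The 5 shoot meristem markers summed to 35.8 and 50.3 CPM in WT on norflurazon, against 102 and 109 CPM in untreated WT. Most of the untreated sum was 1 gene, CLV1, at 13.8 and 22.7 CPM in WT on norflurazon, against 79.05 and 81.1 CPM in untreated WT. Of the 3 that could be tested only CLV1 fell (-2.13, SE 0.19, edgeR adjusted p = 9.65e-07), and WUS and CLV3 lay under 0.3 CPM in every library, WUS being at 0 in 4. Of the 5 root meristem markers 2 rose and 1 fell, while their summed level was 55.8 and 68.1 CPM in WT on norflurazon, against 95.5 and 89.5 CPM in untreated WT. SCR, which fell and made up most of the root sum, had 36.4 and 45.4 CPM in WT on norflurazon, against 77.5 and 69.8 CPM in untreated WT (-0.85, SE 0.13, edgeR adjusted p = 0.000145). PLT1, a defining factor of the root meristem, had 3.52 and 4.42 CPM in WT on norflurazon, against 0.0659 and 0.336 CPM in untreated WT (4.20, SE 0.41, edgeR adjusted p = 2.32e-06). The part of these tissues in the results was not tested.

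On norflurazon, the lines were compared with WT grown on it too. In gun1-9 part of the mitotic set was lower again. Of the 14, 7 fell with a median of -0.84, and the summed level was 17.2 and 17.6 CPM in gun1-9, against 37.5 and 28.4 CPM in WT on norflurazon. Of the 36 tested members, 15 fell and 4 rose. Among all genes tested, 20.9% fell, 22.9% rose and 43.8% changed in either direction. The count of 7 dropped to 2 without gun1-9 replicate 2 and was 5 to 9 without any other library. The 5 genes whose calls were then lost kept log2 fold changes of -0.93 to -0.64. Over all members 9 were called without that library, against 19 with it. DESeq2 called 6 of the 14, and 11 had an unadjusted p under 0.05 by edgeR.

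The widest of these falls was in CYCB1;1, the cyclin least reduced in WT on norflurazon. It had 1.88 and 1.55 CPM in gun1-9, 1.35 and 1.52 CPM in MORF2OX and 1.68 and 2.26 CPM in MORF2OX(w), against 6.28 and 4.03 CPM in WT on norflurazon. The log2 fold changes were -1.58 (SE 0.26, edgeR adjusted p = 0.000365) in gun1-9, -1.83 (SE 0.26, edgeR adjusted p = 0.000294) in MORF2OX and -1.39 (SE 0.25, edgeR adjusted p = 0.00472) in MORF2OX(w). All 6 libraries of the lines lay under both WT libraries. The same WT norflurazon libraries set its small fall against untreated WT, so high values there would narrow that fall and widen these. The gun1-9 and MORF2OX calls passed with each library left out in turn, and that of MORF2OX(w) was lost without its replicate 1 (-1.18, edgeR adjusted p = 0.0662).

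CYCB2;4 (AT1G76310), another mitotic cyclin, had 0.741 and 0.688 CPM in gun1-9, 0.793 and 0.441 CPM in MORF2OX and 0.704 and 0.645 CPM in MORF2OX(w), against 1.97 and 1.89 CPM in WT on norflurazon. In WT on norflurazon it had fallen by 2.08 on the log2 scale. Its further change was -1.43 in gun1-9 (SE 0.29, edgeR adjusted p = 0.00165). In gun1-9 these were the 2 genes of G2 and mitosis that passed in every fit leaving out a library. Their values in the lines stood close together and apart from WT.

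Outside mitosis, 3 of the 4 inhibitors fell in gun1-9, where 20.9% of all genes tested fell. SIM had 22.7 and 19.1 CPM in gun1-9, against 33.7 and 29.7 CPM in WT on norflurazon (-0.60, SE 0.12, edgeR adjusted p = 0.00204). KRP6 had 12.9 and 11.4 CPM in gun1-9, against 26.0 and 17.0 CPM in WT on norflurazon (-0.82, SE 0.18, edgeR adjusted p = 0.00311), and KRP2 had 5.04 and 4.56 CPM, against 8.92 and 7.77 CPM (-0.80, SE 0.16, edgeR adjusted p = 0.00186). All 3 stood below WT on norflurazon, with SIM and KRP6 above untreated WT and KRP2 below it. CYCD5;1 (AT4G37630) had 10.3 and 10.4 CPM in gun1-9, against 5.65 and 6.34 CPM in WT on norflurazon (0.78, SE 0.14, edgeR adjusted p = 0.000957). With library totals alone the rise was 0.37 (edgeR adjusted p = 0.0521). Its level in untreated WT was 10.9 and 9.64 CPM, on both sides of that in gun1-9.

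CYCD4;1 had 1.04 and 0.860 CPM in gun1-9 and 1.03 and 0.841 CPM in MORF2OX, against 2.47 and 2.03 CPM in WT on norflurazon. Both changes passed, at -1.24 (SE 0.28, edgeR adjusted p = 0.00346) in gun1-9 and -1.26 (SE 0.27, edgeR adjusted p = 0.00462) in MORF2OX, the second only with MORF2OX replicate 2 (edgeR adjusted p = 0.0529 without it). CYCD1;1 and CYCD6;1, the D-type cyclins furthest below untreated WT, gave no call in any line. CYCD1;1 had 4.25 and 3.53 CPM in gun1-9, 4.17 and 3.13 CPM in MORF2OX and 3.64 and 2.81 CPM in MORF2OX(w), within the 2.64 and 5.56 CPM of WT on norflurazon.

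In MORF2OX the fall took in every mitotic member. All 14 were lower than in WT on norflurazon with a median of -1.91, and the summed level was 10.9 and 8.01 CPM in MORF2OX, against 37.5 and 28.4 CPM in WT on norflurazon. Of 36 members 22 fell and 3 rose, while 14.1% of all genes tested fell, 19.3% rose and 33.4% changed. The median of all genes was 0.02. In the 10 fits that left out a library, 12 to 14 of the 14 passed. The count over all members was 16 without MORF2OX replicate 2.

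The deepest reduction was that of CYCB1;3, which had 3 counts over both MORF2OX libraries and 5 over both MORF2OX(w) libraries. It stood at 0.0397 and 0.0801 CPM in MORF2OX and 0.117 and 0.0921 CPM in MORF2OX(w), against 0.795 and 0.641 CPM in WT on norflurazon. The ratio to WT on norflurazon was 0.084 in MORF2OX (95% interval 0.0166 to 0.265) and 0.148 in MORF2OX(w) (0.0455 to 0.379), intervals that cover counting error only. In gun1-9 it had 0.297 and 0.645 CPM, a change of -0.57 that did not pass (SE 0.40, edgeR adjusted p = 0.271).

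The group means had the same order in CYCB1;2, with 1.63 and 1.93 CPM in gun1-9, 0.912 and 0.521 CPM in MORF2OX and 1.06 and 1.197 CPM in MORF2OX(w), against 3.77 and 2.35 CPM in WT on norflurazon. It fell by 2.07 in MORF2OX (SE 0.31, edgeR adjusted p = 0.000405) and by 1.43 in MORF2OX(w) (SE 0.29, edgeR adjusted p = 0.0082) on the log2 scale. The second call was lost without either MORF2OX(w) library (edgeR adjusted p = 0.0839 and 0.0672). In gun1-9 the change of -0.76 (SE 0.27, edgeR adjusted p = 0.0381) was lost without either gun1-9 library and in 3 further fits that left out a library.

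CYCA1;1 (AT1G44110), the A1-type cyclin of G2 and mitosis, had 1.09 and 0.946 CPM in gun1-9, 0.436 and 0.401 CPM in MORF2OX and 0.665 and 0.460 CPM in MORF2OX(w), against 2.39 and 1.39 CPM in WT on norflurazon and 9.62 and 10.7 CPM in untreated WT. The fall was 2.14 on the log2 scale in MORF2OX (SE 0.35, edgeR adjusted p = 0.000764). In gun1-9 it was -0.88 (SE 0.31, edgeR adjusted p = 0.035), a call lost without either gun1-9 library (edgeR adjusted p = 0.081 and 0.159) and without WT norflurazon replicate 1 (-0.46). No library of a line reached WT on norflurazon.

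The kinase CDKB2;1 had 3.21 and 3.10 CPM in gun1-9, 1.90 and 1.64 CPM in MORF2OX and 2.19 and 1.89 CPM in MORF2OX(w), against 5.19 and 4.60 CPM in WT on norflurazon. Its changes were -0.63 in gun1-9 (SE 0.17, edgeR adjusted p = 0.0105, 0.0579 without gun1-9 replicate 2), -1.46 in MORF2OX (SE 0.18, edgeR adjusted p = 0.000129) and -1.25 in MORF2OX(w) (SE 0.18, edgeR adjusted p = 0.00134). The libraries of the 3 lines lay below both WT norflurazon libraries, and those of gun1-9 above those of both overexpression lines.

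In MORF2OX(w), 11 of the 14 mitotic members fell against WT on norflurazon with a median of -1.41, and the summed level was 12.5 and 13.7 CPM in MORF2OX(w), against 37.5 and 28.4 CPM in WT on norflurazon. Of 36 members 12 fell and 1 rose, while 4.53% of all genes tested fell, 8.36% rose and 12.9% changed. Over all members, 22 were called without WT norflurazon replicate 2 and 4 without either MORF2OX(w) library. The count of 11 became 3 without either MORF2OX(w) library and 2 when only the libraries of these 2 groups were fitted. The call of CDKB2;1 passed in every fit that left out a library, the only one of the 11 to do so. At an unadjusted p under 0.05, by edgeR, all 14 were lower.

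The other mitotic members had the same direction in every line. CYCB2;2 (AT4G35620) had 0.642 and 0.688 CPM in gun1-9, 0.198 and 0.321 CPM in MORF2OX and 0.235 and 0.552 CPM in MORF2OX(w), against 1.51 and 0.998 CPM in WT on norflurazon and 5.67 and 6.56 CPM in untreated WT. CYCB2;1 (AT2G17620), its close relative, had 0.494 and 0.602 CPM in gun1-9, 0.278 and 0.200 CPM in MORF2OX and 0.313 and 0.460 CPM in MORF2OX(w), against 1.13 and 0.820 CPM in WT on norflurazon and 2.57 and 2.80 CPM in untreated WT. In both genes no library of a line overlapped WT on norflurazon, and the gun1-9 changes did not pass (-0.89 and -0.81, edgeR adjusted p = 0.0722 and 0.0844).

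Of the kinases, CDKB2;2 (AT1G20930) had 1.98 and 1.89 CPM in gun1-9, 1.71 and 1.00 CPM in MORF2OX and 1.56 and 1.80 CPM in MORF2OX(w), against 3.68 and 3.56 CPM in WT on norflurazon and 10.9 and 11.2 CPM in untreated WT. It fell in gun1-9 (-0.90, SE 0.23, edgeR adjusted p = 0.00723, 0.0504 without gun1-9 replicate 2), in MORF2OX (-1.42, SE 0.24, edgeR adjusted p = 0.000934) and in MORF2OX(w) (-1.11, SE 0.23, edgeR adjusted p = 0.01). CDKB1;1 (AT3G54180), a kinase that also holds back endoreduplication, had 0.791 and 1.16 CPM in gun1-9, 0.674 and 0.321 CPM in MORF2OX and 0.821 and 0.875 CPM in MORF2OX(w), against 1.80 and 1.497 CPM in WT on norflurazon and 4.94 and 5.999 CPM in untreated WT. Its values in the lines lay below WT on norflurazon, but only the change in MORF2OX passed (-1.71, SE 0.35, edgeR adjusted p = 0.00349). The changes of -0.74 in gun1-9 and -0.95 in MORF2OX(w) had edgeR adjusted p = 0.085 and 0.0754.

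**Figure D4:**
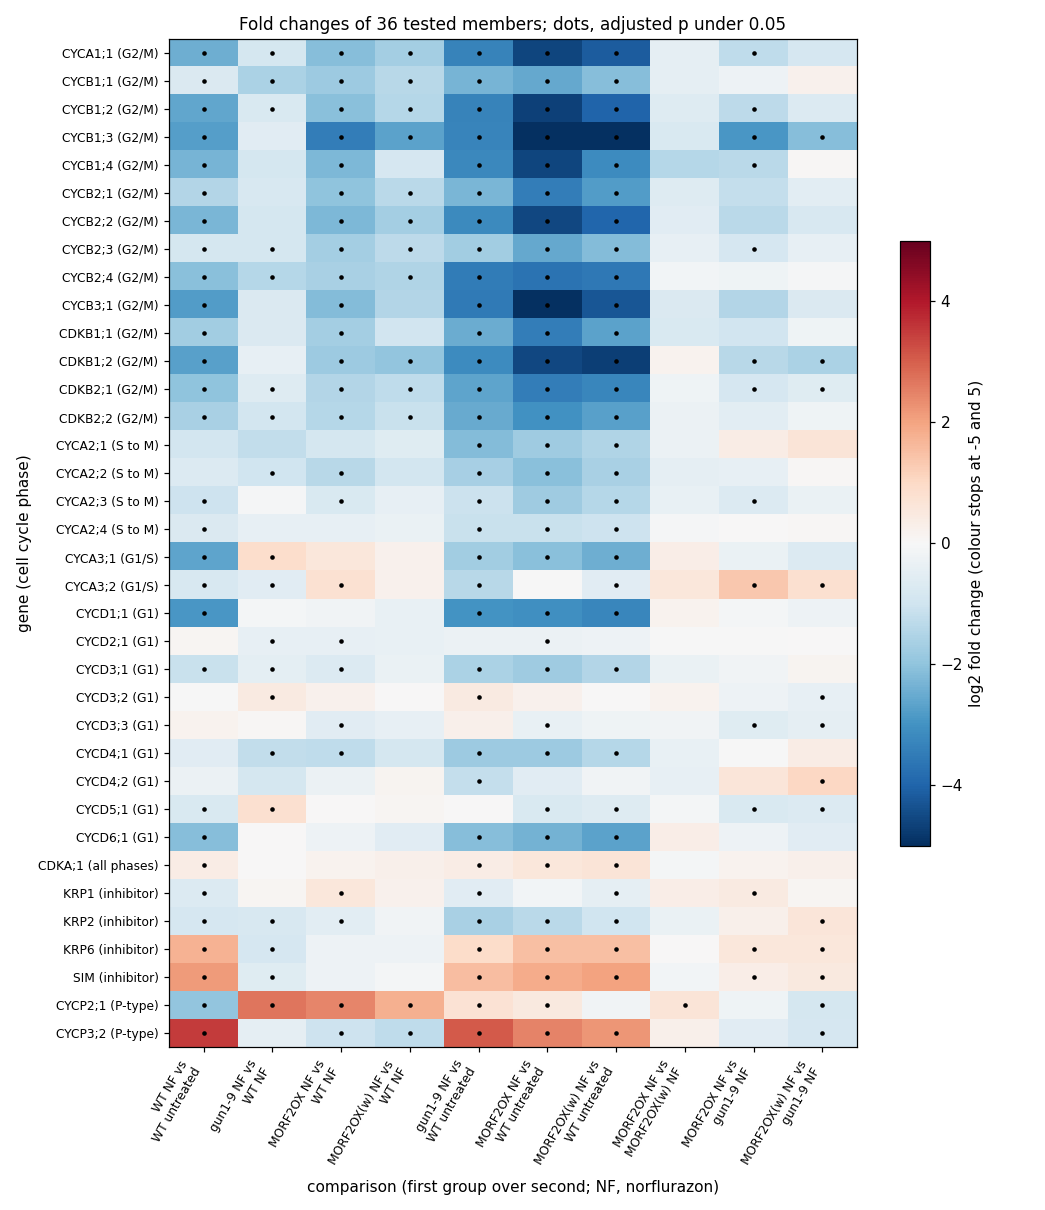
Log2 fold changes of the 36 tested members (rows, ordered by cell cycle phase) in 10 comparisons (columns, the first group over the second), with blue for lower and red for higher, the colour stopping at -5 and 5. Dots mark an edgeR adjusted p under 0.05. The G2 and mitosis rows are dotted in all 14 cases in WT on norflurazon over untreated WT and in MORF2OX over WT on norflurazon.

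Of the 4 A2-type cyclins, 1 fell in gun1-9, 2 in MORF2OX and 0 in MORF2OX(w) by edgeR, where 2 had an unadjusted p under 0.05 and DESeq2 called 0. Among all genes tested, 20.9%, 14.1% and 4.53% fell in that order of lines. CYCA2;2 (AT5G11300) had 0.593 and 0.817 CPM in gun1-9, 0.555 and 0.521 CPM in MORF2OX and 0.626 and 0.875 CPM in MORF2OX(w), against 1.26 and 1.57 CPM in WT on norflurazon and 2.57 and 2.02 CPM in untreated WT. It fell in gun1-9 (-0.99, SE 0.32, edgeR adjusted p = 0.0264) and in MORF2OX (-1.39, SE 0.33, edgeR adjusted p = 0.0076). The first call was lost without WT norflurazon replicate 2 (-0.81) or either gun1-9 library, and the second without MORF2OX replicate 2 (edgeR adjusted p = 0.0649). CYCA2;3, a partner of CDKB1 kinases, had 6.92 and 6.62 CPM in gun1-9, 4.17 and 4.25 CPM in MORF2OX and 5.87 and 4.93 CPM in MORF2OX(w), against 6.74 and 7.45 CPM in WT on norflurazon and 13.2 and 15.6 CPM in untreated WT. It fell in MORF2OX (-0.75, SE 0.16, edgeR adjusted p = 0.00426), while its libraries overlapped between gun1-9 and WT on norflurazon. CYCA2;1 (AT5G25380) had at most 0.502 CPM in any norflurazon library, against 0.593 and 1.07 CPM in untreated WT, and no call in a line against WT on norflurazon or in WT on norflurazon against untreated WT (-0.91, SE 0.54, edgeR adjusted p = 0.157).

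Among the D-type cyclins, CYCD3;1 kept its calls in gun1-9 and MORF2OX with each library left out in turn. It had 13.2 and 13.8 CPM in gun1-9, 12.2 and 11.4 CPM in MORF2OX and 14.1 and 15.6 CPM in MORF2OX(w), against 19.1 and 18.3 CPM in WT on norflurazon. It fell in gun1-9 (-0.47, SE 0.11, edgeR adjusted p = 0.00536) and in MORF2OX (-0.66, SE 0.11, edgeR adjusted p = 0.00107), and did not pass in MORF2OX(w) (-0.34, SE 0.11, edgeR adjusted p = 0.0686). All 6 libraries of the lines lay below both WT libraries, and a neighbouring gene overlaps it on the same strand.

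CYCD2;1 fell by 0.41 on the log2 scale in gun1-9 and in MORF2OX (edgeR adjusted p = 0.017 and 0.0221), calls lost without replicate 2 of either line (edgeR adjusted p = 0.105 and 0.197). CYCD3;2 had 86.2 and 77.2 CPM in gun1-9, against 68.1 and 51.5 CPM in WT on norflurazon (0.45, SE 0.14, edgeR adjusted p = 0.0221), a rise lost without either gun1-9 library and without WT norflurazon replicate 2 (0.27) and with library totals alone (0.04). CYCD3;3 had 15.5 and 14.3 CPM in MORF2OX, against 24.7 and 19.4 CPM in WT on norflurazon (-0.57, SE 0.14, edgeR adjusted p = 0.0103), a fall lost without MORF2OX replicate 2 (edgeR adjusted p = 0.0942). CYCD4;2 (AT5G10440), which acts in the stomatal lineage, gave no call against WT on norflurazon, at 0.602 to 1.68 CPM in the lines and 1.38 and 1.21 CPM in WT on norflurazon.

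The P-type cyclin CYCP2;1 was the member that moved furthest in the other direction. It had 53.0 and 51.4 CPM in gun1-9, 46.7 and 42.4 CPM in MORF2OX and 27.9 and 28.9 CPM in MORF2OX(w), against 8.92 and 7.52 CPM in WT on norflurazon and 32.3 and 31.4 CPM in untreated WT. Every library of a line stood above both WT norflurazon libraries, by log2 fold changes of 2.67 in gun1-9 (SE 0.12, edgeR adjusted p = 1.37e-08), 2.44 in MORF2OX (SE 0.12, edgeR adjusted p = 4.3e-07) and 1.79 in MORF2OX(w) (SE 0.12, edgeR adjusted p = 2.68e-05). These calls passed in every fit that left out a library. Against untreated WT the level was higher in gun1-9 (0.71, SE 0.11, edgeR adjusted p = 0.000175) and in MORF2OX (0.48, SE 0.11, edgeR adjusted p = 0.00242), and it was not called in MORF2OX(w) (-0.17, SE 0.11, edgeR adjusted p = 0.218), where library totals alone gave a rise (0.37, edgeR adjusted p = 0.0136). Its relative CYCP3;2 had 2.57 and 3.01 CPM in gun1-9, 1.75 and 2.00 CPM in MORF2OX and 1.53 and 1.61 CPM in MORF2OX(w), against 2.89 and 4.70 CPM in WT on norflurazon. It fell in MORF2OX (-1.02, SE 0.26, edgeR adjusted p = 0.0105) and in MORF2OX(w) (-1.28, SE 0.27, edgeR adjusted p = 0.01). Both calls were lost without either library of the line, and the first also without WT norflurazon replicate 2 (-0.62).

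CYCA3;2 was called in opposite directions in MORF2OX and gun1-9 against WT on norflurazon. It had 6.38 and 6.53 CPM in gun1-9, 18.6 and 14.4 CPM in MORF2OX and 11.4 and 11.1 CPM in MORF2OX(w), against 8.58 and 10.7 CPM in WT on norflurazon. It rose in MORF2OX (0.77, SE 0.16, edgeR adjusted p = 0.00314) and fell in gun1-9 (-0.58, SE 0.17, edgeR adjusted p = 0.0148). The rise was lost when only these 2 groups were fitted (0.72, edgeR adjusted p = 0.0567) and with library totals alone (0.43, edgeR adjusted p = 0.0592). The fall was lost without either gun1-9 library (edgeR adjusted p = 0.0658 and 0.0599) and without WT norflurazon replicate 2 (-0.40). Directly compared, MORF2OX stood above gun1-9 by 1.35 (SE 0.16, edgeR adjusted p = 8.19e-05) and MORF2OX(w) above gun1-9 by 0.80 (SE 0.17, edgeR adjusted p = 0.00279). CYCA3;1 had 1.09 and 1.46 CPM in gun1-9, 1.23 and 0.801 CPM in MORF2OX and 0.821 and 0.783 CPM in MORF2OX(w), against 0.712 and 0.677 CPM in WT on norflurazon. The rise in gun1-9 (0.88, SE 0.32, edgeR adjusted p = 0.0431) was lost in 8 of 10 fits with 1 library left out.

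Of the 4 inhibitors, 1 rose and 1 fell in MORF2OX, where 33.4% of all genes tested changed. In MORF2OX(w), where 12.9% of all genes changed, edgeR and DESeq2 called 0 and 0 had an unadjusted p under 0.05 by edgeR. SIM had 26.6 and 26.4 CPM in MORF2OX and 30.7 and 27.8 CPM in MORF2OX(w), against 33.7 and 29.7 CPM in WT on norflurazon. Neither change passed, at -0.26 (SE 0.12, edgeR adjusted p = 0.123) in MORF2OX and -0.11 (SE 0.12, edgeR adjusted p = 0.558) in MORF2OX(w). KRP1 had 16.6 and 19.8 CPM in MORF2OX, against 12.6 and 12.1 CPM in WT on norflurazon (0.55, SE 0.13, edgeR adjusted p = 0.00657), a call lost without MORF2OX replicate 2 (0.43, edgeR adjusted p = 0.0807) and with library totals alone (0.21). KRP2 had 6.35 and 5.21 CPM in MORF2OX (-0.53, SE 0.16, edgeR adjusted p = 0.0233). That call was lost without MORF2OX replicate 2 (edgeR adjusted p = 0.192) and without WT norflurazon replicate 1 (0.0729).

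Lists of other cell cycle genes were read in the same comparisons. Among all genes tested, 43.8%, 33.4% and 12.9% changed in gun1-9, MORF2OX and MORF2OX(w). Of 19 genes of mitosis and cytokinesis, 6 fell and 1 rose in gun1-9 (median -0.57), 16 fell in MORF2OX (-1.75) and 13 fell in MORF2OX(w) (-1.38). CDC20.1, an activator of the anaphase-promoting complex, had 1.90 and 1.24 CPM in MORF2OX and 1.76 and 1.34 CPM in MORF2OX(w), against 6.61 and 5.17 CPM in WT on norflurazon. AUR2, an Aurora kinase, was the gene that rose in gun1-9, with 11.3 and 10.8 CPM, against 3.81 and 3.60 CPM in WT on norflurazon. Of 23 genes of S phase and replication, 3 rose and 3 fell in gun1-9, 2 rose and 6 fell in MORF2OX, and 1 rose and 1 fell in MORF2OX(w), with medians of -0.11, -0.38 and -0.22. TSO2 rose in all 3 lines, with 32.1 and 31.8 CPM in gun1-9, 26.9 and 21.2 CPM in MORF2OX and 23.4 and 26.5 CPM in MORF2OX(w), against 18.8 and 18.4 CPM in WT on norflurazon.

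The counts of the remaining lists stand beside 43.8%, 33.4% and 12.9% of all genes tested that changed in gun1-9, MORF2OX and MORF2OX(w). Of the 15 MYB3R factors and CDK regulators, 3 rose and 1 fell in gun1-9, 2 rose and 5 fell in MORF2OX, and 1 rose and 1 fell in MORF2OX(w). CCS52B, an activator of the anaphase-promoting complex, fell in both overexpression lines (-1.08 and -1.03). Among 12 other KRP and SMR inhibitors the counts were 2 rising and 4 falling in gun1-9, 3 rising and 1 falling in MORF2OX, and 1 rising in MORF2OX(w). KRP4, an inhibitor of the transition to S phase, rose in both overexpression lines, to 55.9 and 49.7 CPM in MORF2OX and 45.9 and 46.1 CPM in MORF2OX(w), against 29.9 and 34.3 CPM in WT on norflurazon. Of the E2F and retinoblastoma-related list, 2 fell in MORF2OX, while edgeR called 0 in gun1-9 and 0 in MORF2OX(w), where 1 gene each had an unadjusted p under 0.05. Of other cyclins 1 rose in gun1-9 and 1 fell in MORF2OX, and of DNA damage genes 1 fell in gun1-9 and 1 rose and 2 fell in MORF2OX. Stomatal lineage markers summed to 47.0 and 42.2 CPM in gun1-9, 39.4 and 38.6 CPM in MORF2OX and 43.1 and 44.4 CPM in MORF2OX(w), against 36.5 and 37.6 CPM in WT on norflurazon, and root meristem markers to 148 and 126 CPM, 70.5 and 70.4 CPM, and 67.7 and 72.7 CPM, against 55.8 and 68.1 CPM. Shoot meristem markers summed to 53.0 and 45.0 CPM in gun1-9, 61.2 and 55.0 CPM in MORF2OX and 52.9 and 50.2 CPM in MORF2OX(w), against 35.8 and 50.3 CPM in WT on norflurazon. In gun1-9, STM of the shoot list fell, SCR of the root list rose (1.52, SE 0.13, edgeR adjusted p = 2.65e-06) and 2 stomatal markers rose. SCR, at 127 and 108 CPM in gun1-9, made up most of the root sum there. In MORF2OX CLV1 rose (0.84, SE 0.18, edgeR adjusted p = 0.0048) to 35.6 and 30.05 CPM. The part of these markers in the fall of the mitotic members was not tested.

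**Figure D5:**
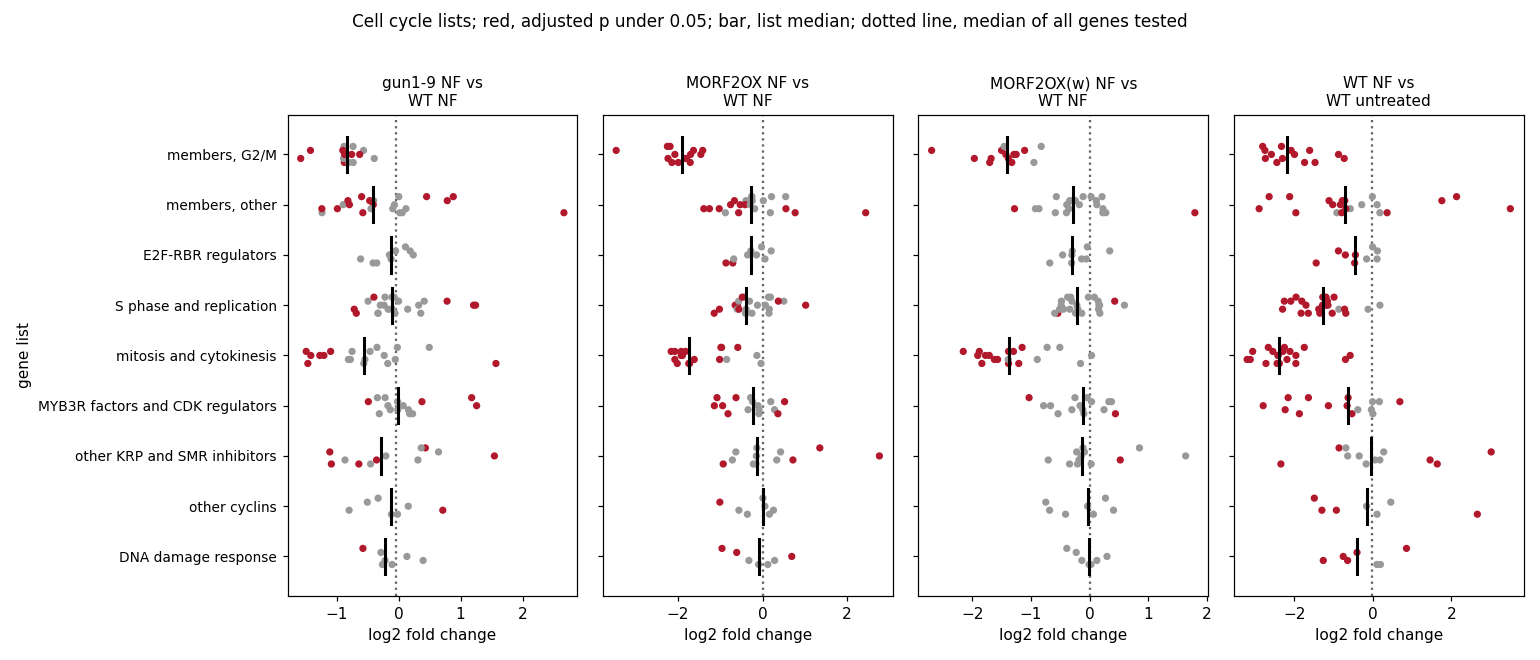
Log2 fold changes (horizontal axis) of the members and of 7 further cell cycle lists (rows) in gun1-9, MORF2OX and MORF2OX(w) over WT on norflurazon and in WT on norflurazon over untreated WT (panels). Each point is a gene, red where the edgeR adjusted p is under 0.05, the black bar is the list median and the dotted line the median of all genes tested. The mitotic members and the mitosis list share low medians, -1.91 and -1.75 in MORF2OX.

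Set against untreated WT, all 14 mitotic members fell in each line, with both tools, all scalings and every library left out in turn. The medians were -3.16 in gun1-9, -4.12 in MORF2OX and -3.41 in MORF2OX(w). Over the 36 members, 27 fell and 6 rose in gun1-9, 27 fell and 5 rose in MORF2OX, and 27 fell and 4 rose in MORF2OX(w). Among all genes tested, 30.8% fell, 29.3% rose and 60.1% changed in gun1-9. In MORF2OX 35% fell, 31.2% rose and 66.2% changed, and in MORF2OX(w) 34.8% fell, 30.8% rose and 65.6% changed. For CYCB1;3, at 3 counts in MORF2OX, the ratio to untreated WT was 0.0124 (95% interval 0.00253 to 0.037). CDKA;1 rose in every line, by 0.38 (SE 0.11, edgeR adjusted p = 0.00925) in gun1-9, 0.55 (SE 0.11, edgeR adjusted p = 0.000739) in MORF2OX and 0.64 (SE 0.11, edgeR adjusted p = 0.000244) in MORF2OX(w). All these comparisons share the untreated libraries.

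Between the overexpression lines 1 member was called. In MORF2OX against MORF2OX(w), 1 member of 36 rose and 0 fell by edgeR and by DESeq2, and 3 were higher and 4 lower at an unadjusted p under 0.05 by edgeR, while 1.5% of all genes tested rose, 0.315% fell and 1.81% changed. It was CYCP2;1 (0.65, SE 0.11, edgeR adjusted p = 0.0146), a call lost without any of the 4 libraries compared. Without either WT norflurazon library 3 members were called. None of the 14 mitotic members passed by edgeR or by DESeq2, although 1 had an unadjusted p under 0.05 by edgeR, and the median was -0.50. Of MORF2OX against gun1-9, 10 members fell and 4 rose, 7 of the falls in G2 and mitosis, where 18.1% of all genes tested fell, 17.1% rose and 35.2% changed. For MORF2OX(w) against gun1-9, 8 members fell and 5 rose, 3 of the falls in G2 and mitosis, where 19% of all genes fell, 16.7% rose and 35.7% changed. Over all members the first comparison gave 9 calls without gun1-9 replicate 1 and 4 without gun1-9 replicate 2 or MORF2OX replicate 2. The second gave 8 and 3 without gun1-9 replicates 1 and 2, and 4 and 6 without MORF2OX(w) replicates 1 and 2. The mitotic counts became 4 without gun1-9 replicate 1 and 1 without gun1-9 replicate 2 or MORF2OX replicate 2 in the first comparison. In the second they became 0 without gun1-9 replicate 2 or MORF2OX(w) replicate 1, 1 without MORF2OX(w) replicate 2 and 5 without WT norflurazon replicate 2. In the inhibitors, SIM and KRP6 stood above gun1-9 in both overexpression lines by 0.34 to 0.58, calls that were lost without gun1-9 replicate 2.

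Compared per kilobase of exon, so that genes of different length can be set beside each other, the members spread over a wide range of levels. CYCD3;2 had 48.6 CPM per kilobase in gun1-9, 41.2 in MORF2OX, 36.1 in MORF2OX(w), 35.6 in WT on norflurazon and 35.8 in untreated WT. CDKA;1 had 39.3, 44.2 and 47.0 in the lines in that order, 38.9 in WT on norflurazon and 30.2 in untreated WT. CYCP2;1 had 57.6, 49.2 and 31.3 in the lines, 9.07 in WT on norflurazon and 35.2 in untreated WT. SIM had 26.4, 33.5 and 36.96 in the lines, 40.0 in WT on norflurazon and 9.12 in untreated WT. Its mean in WT on norflurazon lay close to that of CDKA;1, and it overlaps a gene on the opposite strand, as do CYCD3;2 and CDKB2;1. The highest of the mitotic members, the kinase CDKB2;1, had 2.31, 1.30 and 1.49 in the lines, 3.58 in WT on norflurazon and 14.3 in untreated WT. The values are means of 2 libraries each and are given as levels, with no test between genes.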

How the data were processed

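Single-end stranded polyA RNA sequencing was made from 500 ng of total RNA per library. The authors deposited raw read counts per gene. HTSeq 0.6.1, TopHat2 2.1.1, edgeR and Bowtie2 2.3.1 are named in the submitters' processing notes, with the TAIR10 build. The strand setting of the counting is not given in the sources used here. From the counts, edgeR 4.0.16 (R 4.3.3) fitted all 10 libraries in 1 model, with filterByExpr, TMM factors and quasi-likelihood tests of 10 comparisons. It kept 20628 of 33602 genes, and the biological coefficient of variation was 11.1%. An SE is the log2 fold change divided by the square root of F. DESeq2 1.42.0, other scalings, no filter, fits of 2 groups, a replicate block and each library left out in turn were the alternatives. The fit was also run on simulated counts in which 200 genes were changed, as many up as down. Changes that few and balanced cannot test the scaling used here.

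Any member could be named. From each of the 10 other lists, counts were given, and up to 2 called genes per direction with the smallest p in the comparisons with a WT group. Members and lists were chosen with earlier results of these data known. The labels do not say that replicate numbers pair the libraries, and the main fit had no replicate block.

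Upstream windows were read from TAIR10.1 (RefSeq), which held 37 of 37 members.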

Additional observations from a re-analysis of the deposited data

Results flagged for a closer look

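CYCA3;2, a cyclin of the G1 to S transition, responded differently in 2 lines compared with the same WT libraries on norflurazon. The log2 fold change was 0.77 in MORF2OX and -0.58 in gun1-9, and the difference between them was itself tested, at 1.35 (edgeR adjusted p = 8.19e-05). Both MORF2OX libraries lay above and both gun1-9 libraries below the WT libraries. The fall in gun1-9 was lost without any of 3 single libraries, while the difference between the lines was called in every fit that left out a library.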

How the results depend on the processing

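Over 5747 alternative values for single members, 5395 stayed on their side of the threshold, 252 lost a call, 90 gained one and 10 reversed. A reversal needed a call in the main or the alternative fit. Uncalled values that changed sign would be among the 5395. All 10 reversals came with library totals in place of scaling factors, an alternative chosen after seeing the data, and for all changes named here the cause was not tested. For WT norflurazon against untreated WT they were CYCA2;4 (0.018), CYCB1;1 (0.0073), KRP1 (0.048) and CYCD3;2 (0.72), and for gun1-9 against WT norflurazon CYCD3;3 (-0.36) and CDKA;1 (-0.40). Against untreated WT they were CYCD2;1 (0.094) and CYCD3;3 (0.013) in MORF2OX, and KRP1 (0.078) and CYCP2;1 (0.37) in MORF2OX(w).

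With those totals the called members became 20 for MORF2OX(w) against WT norflurazon and 0 for MORF2OX against MORF2OX(w), and the mitotic members lower in gun1-9 became 11. Fitting only the 2 groups compared gave 3 members and 2 mitotic members for MORF2OX(w) against WT norflurazon, and 2 members for MORF2OX against MORF2OX(w). Without a filter on low counts the last comparison had 3 members and 1 mitotic member lower. DESeq2 called 1 mitotic member lower in MORF2OX(w) against gun1-9. In the fits that left out no library, the other counts of members and mitotic members stayed within 1.5 times. That included the replicate block (34 against 33 members for gun1-9 against untreated WT, 14 against 13 for MORF2OX(w) against WT norflurazon). Deviations of libraries with the same number correlated at -0.102 to 0.0892 over 10 pairs of groups. Such values do not show whether libraries of the same number shared a day or batch, which the labels do not say.

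Leaving out 1 library at a time gave 26 to 30 members for norflurazon in WT. Against WT norflurazon it gave 9 to 19 in gun1-9, 16 to 27 in MORF2OX and 4 to 22 in MORF2OX(w). Against untreated WT it gave 31 to 34, 29 to 32 and 28 to 32 in that order. For MORF2OX against MORF2OX(w) it gave 0 to 3, for MORF2OX against gun1-9 4 to 17 and for MORF2OX(w) against gun1-9 3 to 16. Mitotic members lower ran from 12 to 14 for norflurazon in WT, 2 to 9 in gun1-9, 12 to 14 in MORF2OX and 3 to 13 in MORF2OX(w) against WT norflurazon, and were 14 in every line against untreated WT. Between lines they ran from 0 to 1, 1 to 8 and 0 to 5.

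Totals also moved the share of lower calls among all genes called. It was 21.5% against 53% with TMM for norflurazon in WT. In the lines against WT norflurazon it was 79.8% against 47.7% (gun1-9), 82% against 42.1% (MORF2OX) and 77.1% against 35.2% (MORF2OX(w)), and against untreated WT 32.4% against 51.2%, 32.9% against 52.9% and 27.8% against 53.1% in that order. For MORF2OX against MORF2OX(w) it was 47.9% against 17.4%, and for MORF2OX(w) against gun1-9 29.7% against 53.3%. Counts of 10 or fewer per group limit CYCD7;1 throughout, CYCA2;1 in gun1-9 (8 counts), CYCB1;3 in both overexpression lines (3 and 5), CYCB3;1 in MORF2OX (7) and CDKB1;2 in MORF2OX(w) (10).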
